A study of Homo sapiens with 6 samples.

Results

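Prostaglandin synthesis and its receptors were followed through 7 genes: PLA2G4A, PTGS1, PTGS2, PTGES, PTGIS, PTGER2 and PTGER4. They were taken by symbol from the table of transcripts per 1000000 (TPM), a within-library measure of RNA abundance that is divided by transcript length, and are 7 of its 59008 genes. The mean TPM over the 6 libraries was at least 1 for 5 of them, and these stand among the 14988 genes of the table above that limit, called the tested genes here. PTGER2 and PTGER4 fell below it. Each of the 5 was under 1 TPM in at least 1 library and passed through the libraries where it was high, so a high share of calls among them is in part built in.

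Prostaglandins are lipid signals made on demand from arachidonic acid. A phospholipase A2 such as PLA2G4A releases the fatty acid from membranes, a cyclooxygenase (PTGS1 or PTGS2) turns it into PGH2, and a terminal synthase makes the final product, which is PGE2 for PTGES and prostacyclin (PGI2) for PTGIS. PTGER2 and PTGER4 encode EP2 and EP4, receptors of PGE2 that raise cyclic AMP in the cell. PTGS1 is usually described as the constitutive cyclooxygenase and PTGS2 as the one that inflammatory signals and growth factors induce, and PGE2 made through PTGS2 is widely studied in carcinomas.

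Hey and SKOV3 are established human ovarian cancer cell lines, and each gave 3 libraries of total RNA, 1 for each state. Parental cells were untreated. Polyploid giant cancer cells (PGCCs) and daughter cells had been exposed to 500 nM paclitaxel, a drug that stabilizes microtubules, for 16 h according to the treatment labels. Recovery without drug was 3 days for both PGCC libraries by those labels, whereas the title of the SKOV3 PGCC library gives day 7. Daughter cells, which bud from PGCCs, had recovered for 30 days, and their titles name 1 clone in each line. Hey was grown in MEM Eagle and SKOV3 in RPMI-1640, so line and medium cannot be told apart. No condition has a second library, so no value within a line carries an error, and a difference between 2 libraries compares those libraries, not the conditions. The daughter and the PGCC comparisons of a line against parental cells share its parental library.

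The columns summed to between 911825 and 920497 TPM, and between 19920 genes (Hey parental) and 25370 genes (Hey PGCCs) were above 0. Read counts per gene were not used here, so the depth behind a value is unknown. Mitochondrial genes took 2.64%, 12.3% and 7.6% of the TPM in Hey parental cells, PGCCs and daughter cells, and 9.17%, 7.37% and 14.8% in SKOV3. Of 7 markers of ovarian carcinoma epithelium, between 5 and 7 reached 1 TPM in each library, with summed levels between 1087 and 2584 TPM. EPCAM, an epithelial adhesion molecule, was at most 1.43 TPM in the Hey libraries and at least 8.15 TPM in the SKOV3 libraries, and MUC16, which encodes CA125, was at most 1.59 TPM in any library. Among the leukocyte, platelet and mast cell markers, CD68, which also marks lysosomes of other cells, was at 46.3, 69.3 and 45.6 TPM in Hey and at 17.1, 20.0 and 0.840 TPM in SKOV3. The others were at most 1.74 TPM, the highest being ITGA2B, and PTPRC, which marks leukocytes, was at most 0.425 TPM. CD3E, PF4, GP9 and TPSAB1 of these lists were listed at 0 in all 6 libraries. CDH5, an endothelial cadherin, was at 33.2 to 48.5 TPM in Hey while the other 4 endothelial markers were at most 0.918 TPM in any library.

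In the human genome (GRCh38, GENCODE release 44) PTGS2 lies at chr1:186671791-186680922 on the minus strand and PLA2G4A at chr1:186828949-186988981 on the plus strand, 148026 bases apart. PTGS1 lies at chr9:122370530-122395703 (plus), PTGES at chr9:129738331-129753042 (minus) and PTGIS at chr20:49503874-49568137 (minus). PTGER2 lies at chr14:52314305-52328598 and PTGER4 at chr5:40679915-40693735, both on the plus strand. The antisense long noncoding RNA PACERR shares 219 of the 5484 exon bases of PTGS2 (3.99%), and its level was at most 0.338 TPM. Whether the counting used strand is not given in the sources used here, so the reads of this overlap cannot be assigned to either gene.

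The 250 bases before the transcription start are shown for the cyclooxygenases and for PTGES, genes that moved differently between libraries. PLA2G4A also did, and it is not shown, nor are PTGER2 and PTGER4. The sequences are those of RefSeq (GRCh38.p14), read 5′ to 3′ on the strand of the gene, and 6 of the 7 members had an entry, the exception being PTGIS. Capitals mark 4 motifs on either strand: TATAAA (the TATA box), TTNNGCAA (bound by C/EBP factors), CGTCA (a core of the cyclic AMP response element) and GGGCGG (the GC box bound by Sp1). The first line is the region before the RefSeq start of PTGS2 at chr1:186680424-186680673, in which 73 bases belong to exons of another gene. This region lies inside the GENCODE bounds of PTGS2 given above, which extend upstream of that RefSeq start. The next lines give both starts that RefSeq lists for PTGS1, at chr9:122370283-122370532 and chr9:122375052-122375301, and the last one PTGES at chr9:129753043-129753292.
PTGS2: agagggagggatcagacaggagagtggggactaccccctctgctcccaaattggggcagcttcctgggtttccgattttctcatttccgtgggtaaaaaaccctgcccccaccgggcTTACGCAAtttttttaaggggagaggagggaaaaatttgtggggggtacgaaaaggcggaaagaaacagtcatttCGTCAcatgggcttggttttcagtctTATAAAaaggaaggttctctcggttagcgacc
PTGS1, start 1: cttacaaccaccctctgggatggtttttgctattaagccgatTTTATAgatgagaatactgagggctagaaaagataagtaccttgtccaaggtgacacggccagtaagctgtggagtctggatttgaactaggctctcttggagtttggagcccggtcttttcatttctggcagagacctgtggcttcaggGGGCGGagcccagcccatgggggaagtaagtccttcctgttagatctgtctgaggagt
PTGS1, start 2: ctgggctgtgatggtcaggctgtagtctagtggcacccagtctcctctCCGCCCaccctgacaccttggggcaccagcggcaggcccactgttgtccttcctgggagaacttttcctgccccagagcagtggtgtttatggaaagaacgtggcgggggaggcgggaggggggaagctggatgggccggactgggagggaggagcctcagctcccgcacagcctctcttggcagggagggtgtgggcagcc
PTGES: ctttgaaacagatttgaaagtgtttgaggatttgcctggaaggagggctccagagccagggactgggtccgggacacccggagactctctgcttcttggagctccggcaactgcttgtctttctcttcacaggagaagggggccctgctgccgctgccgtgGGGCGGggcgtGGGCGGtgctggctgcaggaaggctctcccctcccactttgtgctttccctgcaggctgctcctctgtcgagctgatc

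The PTGS2 region held TATAAA 32 bases, CGTCA 58 bases and TTNNGCAA 133 bases before the RefSeq start. None of these letters occurred within the region shown for PTGES. At start 1 PTGS1 had GGGCGG 58 bases before the start and TATAAA only on the opposite strand, 208 bases before it. At start 2 it had GGGCGG on the opposite strand, 202 bases before the start. PTGES had GGGCGG at 89 and 78 bases before its start. Among the 35116 RefSeq windows of 300 bases, which run from 250 bases before to 50 bases after a start, 11.5% held TATAAA, 10.5% TTNNGCAA, 24.6% CGTCA and 45.0% GGGCGG. An NF-kB consensus, GGGRNNYYCC with R for A or G and Y for C or T, was also searched, as was the AP-1 motif TGANTCA. Each had 0 exact matches in the windows of PTGS2, PTGS1 and PTGES. NF-kB sites of other letters were not searched, and ggggactacccc in the PTGS2 region is not an exact match. PTGER2 and PTGER4 held the NF-kB consensus, and PLA2G4A had 0 matches to any of the motifs. The NF-kB consensus and the AP-1 motif occurred in 11.3% and 7.71% of the windows. Each motif thus occurs in many promoters, and a match describes letters, not binding.

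The parental level of PLA2G4A was higher in Hey than in SKOV3. Of the other tested phospholipases A2 of the path, PLA2G15 (9.94 against 7.19 TPM) and PLA2G4C (3.13 against 2.85 TPM) were also higher in Hey. PLA2G12A, PLAAT3 and PLA2G6 were lower in Hey. PLA2G4A, the cytosolic phospholipase A2 that prefers arachidonate, was at 6.03, 4.19 and 2.94 TPM in Hey parental cells, PGCCs and daughter cells, and at 0.738, 0.321 and 3.08 TPM in SKOV3. Both treated Hey libraries were below their parental library, whereas in SKOV3 the daughter library was the highest and the other libraries were below 1 TPM. The ranges of the lines overlapped only because SKOV3 daughter cells reached the level of Hey daughter cells.

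PTGS2, the inducible cyclooxygenase, was high in a different state in each line. It was at 0.654 TPM in Hey parental cells, 7.19 TPM in PGCCs and 0.14 TPM in daughter cells, and at 0.319, 0.320 and 2.98 TPM in the same states of SKOV3. The Hey PGCC library stood above the other 5, the SKOV3 daughter library came next, and the SKOV3 parental and PGCC libraries had nearly the same level. Even in Hey PGCCs its level was above that of 43.0% of the tested genes. PTGS1, the constitutive form, was at 0, 0.325 and 0.0545 TPM in Hey and at 3.14, 3.38 and 0.257 TPM in SKOV3. Only the parental and PGCC libraries of SKOV3 were above 1 TPM.

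PTGES, the microsomal PGE2 synthase that is known to be induced together with PTGS2, was at 0.0290, 3.61 and 0.0573 TPM in Hey and at 17.6, 33.1 and 2.45 TPM in SKOV3. The PGCC library was the highest of its line in both lines, and the daughter libraries were low. PTGIS, the prostacyclin synthase, was at 1.51, 0.475 and 2.10 TPM in Hey and at 42.6, 59.5 and 131 TPM in SKOV3. Daughter cells had the highest PTGIS level of each line, and in SKOV3 daughter cells PTGIS was above 93.0% of the tested genes.

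The PGE2 receptors were low throughout. PTGER4 was at 1.03, 0.880 and 0.190 TPM in Hey and at 0.256, 0.438 and 1.48 TPM in SKOV3, so that it passed 1 TPM only in Hey parental cells and SKOV3 daughter cells. PTGER2 was at 0.256, 0.297 and 0.0391 TPM in Hey and at 0.591, 0.437 and 0.0444 TPM in SKOV3, and its lowest level in each line was in daughter cells. The number of reads behind such levels is unknown.

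**Figure D1:**
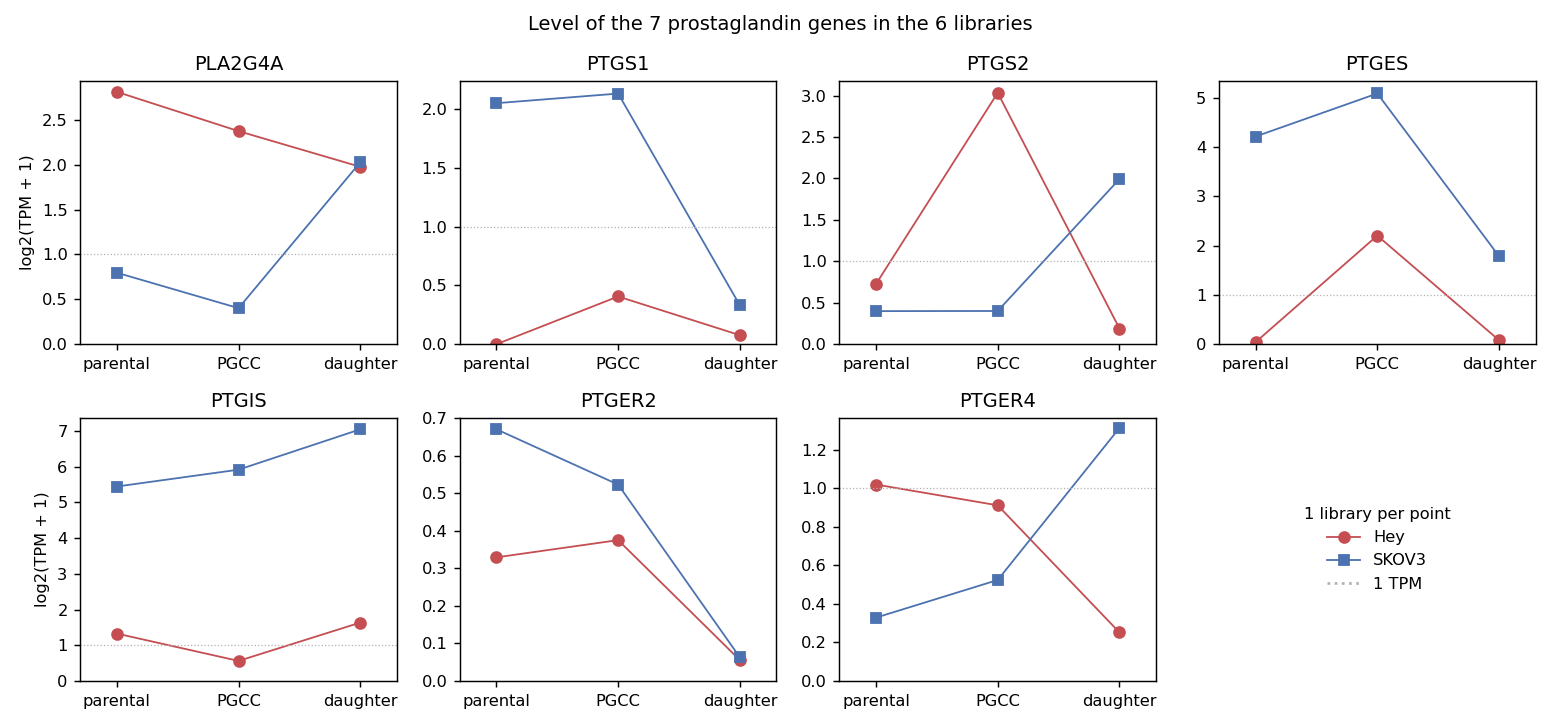
Level of the 7 genes as log2(TPM + 1) (vertical axis, scaled for each gene) in parental cells, PGCCs and daughter cells (horizontal axis) of Hey (red circles) and SKOV3 (blue squares). Each point is 1 library, so there are no error bars; lines join the states of a line and the dotted line marks 1 TPM. PTGES peaked in PGCCs of both lines, while PTGS2 peaked in PGCCs of Hey and in daughter cells of SKOV3.

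Between the lines, PTGIS was the 1 member whose 3 SKOV3 libraries all lay above all 3 Hey libraries, an ordering found for 31.8% of the tested genes. The opposite ordering, found for 12.8% of the tested genes, held for 0 members. In parental cells the difference of SKOV3 minus Hey in log2(TPM + 1) was 4.18 for PTGES, 4.12 for PTGIS, 2.05 for PTGS1 and -2.02 for PLA2G4A.

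Changes between states were computed within each line as differences of log2(TPM + 1), with a call made from a difference of 1 upwards in either direction. This is 2-fold on that scale, which understates the change in TPM of genes of low level. In Hey PGCCs compared with parental cells, PTGS2 and PTGES rose. The difference was 2.31 for PTGS2, an 11-fold higher TPM, and 2.16 for PTGES, whose parental level was too near 0 to give a ratio. Among all tested genes 7.67% rose and 5.22% fell in this comparison, and 207 genes (1.38%) had a larger difference than PTGS2 and 233 genes (1.55%) than PTGES. The other members were not called, at 0.41 for PTGS1, -0.77 for PTGIS, -0.44 for PLA2G4A, 0.046 for PTGER2 and -0.11 for PTGER4. PTGIS was called lower after quantile normalization between the libraries (-1.29).

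Other values moved in the same library. The summed level of 7 fibroblast markers was 0.209, 3.28 and 0.133 TPM in Hey parental cells, PGCCs and daughter cells, with 0 markers listed at 0 in PGCCs and 2 of the 7, LUM and COL1A1, at 1 TPM or more. In SKOV3 this sum was between 12.6 and 27.3 TPM. Hey PGCCs also had the most genes above 0 and, within Hey, the highest mitochondrial share. In bulk RNA, more cells with a given RNA and more of that RNA per cell cannot be told apart. The part of these values in the PTGS2 and PTGES levels was not tested.

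In SKOV3 PGCCs compared with parental cells 0 of the 5 tested members were called, where 9.94% of the tested genes rose and 4.96% fell. PTGES came nearest at 0.87, a 1.88-fold higher TPM. PTGIS differed by 0.47, PTGS1 by 0.082, PTGS2 by 0.0019 and PLA2G4A by -0.40. In this comparison the differences of 13468 genes rose with the GC content of their transcripts, with a Spearman correlation of 0.72 across genes, which are not independent replicates, against -0.044 in Hey. The transcripts of PTGES and PTGS2 have 56.4% and 36.8% GC. With the trend in GC content and length removed, the difference was 0.43 for PTGES and 0.62 for PTGS2, and neither was called.

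Daughter cells compared with parental cells showed 0 called members in Hey, where 6.31% of the tested genes rose and 3.73% fell. The values nearest to the threshold were -0.84 for PLA2G4A, -0.77 for PTGER4 and -0.54 for PTGS2, and PTGIS was at 0.31, PTGER2 at -0.27, PTGS1 at 0.077 and PTGES at 0.039. In SKOV3 daughter cells 5 of the 5 tested members were called, in both directions, where 15.1% of the tested genes rose and 6.34% fell. PTGES fell by 2.43 on the log2 scale, a 7.18-fold lower TPM, and PTGS1 fell by 1.72, a 12.2-fold lower TPM. PTGIS rose by 1.60 (3.08-fold in TPM), PTGS2 by 1.59 (9.35-fold) and PLA2G4A by 1.23 (4.17-fold). After quantile normalization PLA2G4A was not called (0.78). PTGER4 was at 0.98 in this comparison, just under the threshold, and at 1.10 with mitochondrial genes left out, and PTGER2 was at -0.61. In the same library EPCAM was at 8.15 TPM against 68.8 TPM in parental cells, CD68 at 0.840 against 17.1 TPM, and CDH5 at 2.56 TPM against 0. The fibroblast markers summed to 27.3 TPM in it, with 3 of 7 at 1 TPM or more, and to 12.9 TPM in parental cells, also with 3 of 7. The part of these values in the differences of the members was not tested.

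PGCCs compared with daughter cells gave 2 members whose calls had the same sign in Hey and SKOV3, PTGES being higher and PTGIS lower in PGCCs. Of all tested genes 1.07% were called higher and 1.21% lower in PGCCs of both lines. In Hey, where 8.13% of the tested genes were higher and 9.95% lower in PGCCs, PTGS2 was higher by 2.84 and PTGES by 2.12, and PTGIS differed by -1.07. Only 139 tested genes (0.927%) had a larger difference than PTGS2. In SKOV3, where 9.25% were higher and 14.6% lower, PTGES was higher by 3.30 and PTGS1 by 1.80. PLA2G4A differed by -1.63, PTGS2 by -1.59 and PTGIS by -1.13 in SKOV3. The differences of this SKOV3 comparison also rose with GC content, with a Spearman correlation of 0.46 across genes, and with the trend in GC content and length removed PTGES was at 2.91 and PTGS2 at -1.08. For PTGES 99 tested genes (0.661%) had a larger difference. The PTGIS call was lost in Hey once the trend with GC content and length was taken out (-0.93) and in SKOV3 under median-ratio scaling (-0.98).

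**Figure D2:**
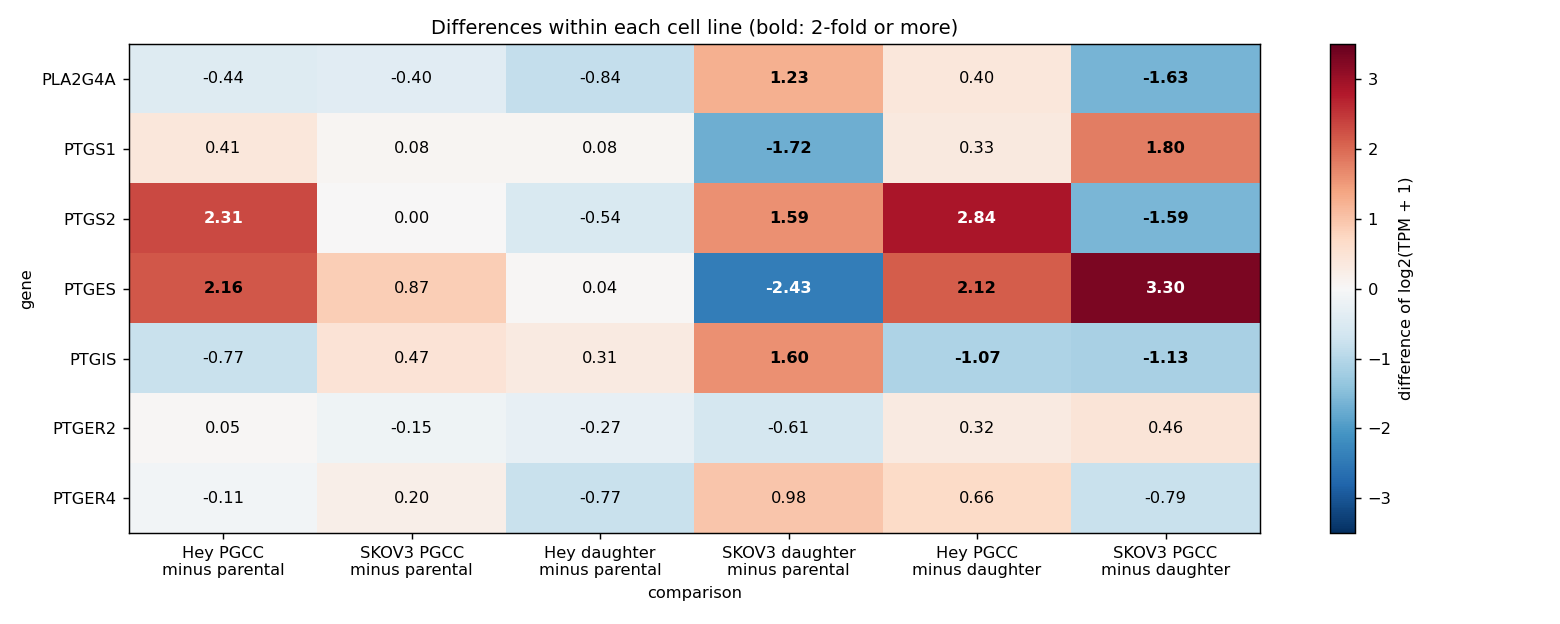
Differences of log2(TPM + 1) of the 7 genes (rows) in the 6 comparisons (columns), each the first library minus the second library of a line, with 1 library per condition and no error. Colour and number give the difference and bold marks 2-fold or more. PTGES is the row with bold positive values in PGCCs minus daughter cells of both lines (2.12 and 3.30), and PTGS2 changes sign between the lines there (2.84 and -1.59).

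**Figure D3:**
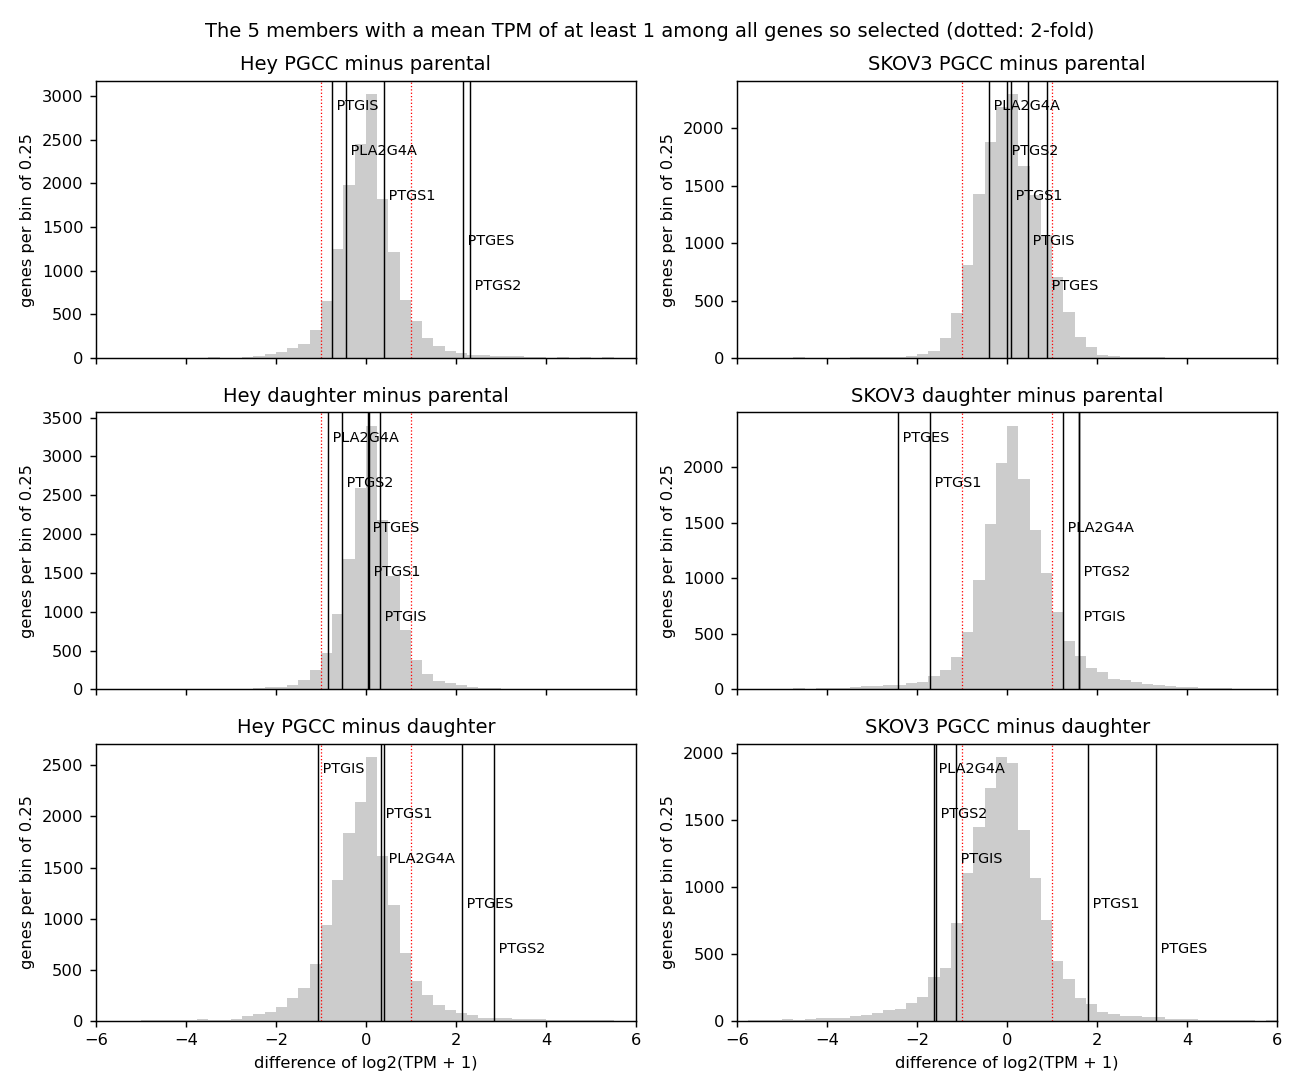
Histograms of the difference of log2(TPM + 1) (horizontal axis, cut at 6 either way, bins of 0.25) over the 14988 tested genes in the 6 comparisons, with the number of genes on the vertical axis. Black lines mark the 5 tested members and dotted lines the 2-fold threshold. In Hey PGCCs minus parental cells PTGS2 (2.31) and PTGES (2.16) lie in the upper tail, and in SKOV3 PGCCs minus parental cells no member is past the threshold.

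Across both lines the second line is the only repeat of a state. A limma fit with state and line as terms, which has 2 residual degrees of freedom, gave 0 members an adjusted p under 0.05. It called 0.0200% of the tested genes (3 genes) for PGCCs against parental cells, 0.0133% (2 genes) for daughter against parental cells and 0% for PGCCs against daughter cells, where 758 genes had an unadjusted p under 0.05. PTGES was the member with a difference furthest from 0 in that last comparison, at 2.71 with a standard error of 0.64 and a limma adjusted p of 0.908, and it was higher in PGCCs in 2 of 2 lines.

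Shares were taken within the pairs PTGS1 with PTGS2 and PTGES with PTGIS. The second pair is not the whole terminal step: it leaves out other synthases, such as PTGES2 and PTGES3 at 31.4 and 399 TPM in Hey PGCCs. PTGS1 made up 90.8% and 91.3% of the summed TPM of PTGS1 and PTGS2 in SKOV3 parental cells and PGCCs but 7.94% in daughter cells. The sum itself was 3.46, 3.70 and 3.24 TPM in these libraries, so the 2 genes differed while their total was nearly level. In Hey the PTGS1 share was 0%, 4.32% and 28.0% of sums of 0.654, 7.51 and 0.195 TPM. PTGES made up 29.2% and 35.7% of the TPM of PTGES and PTGIS in SKOV3 parental cells and PGCCs and 1.83% in daughter cells. In Hey PGCCs it made up 88.4%, against 1.88% in parental and 2.65% in daughter cells. Shares of TPM are shares of RNA and say nothing of enzyme activity.

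**Figure D4:**
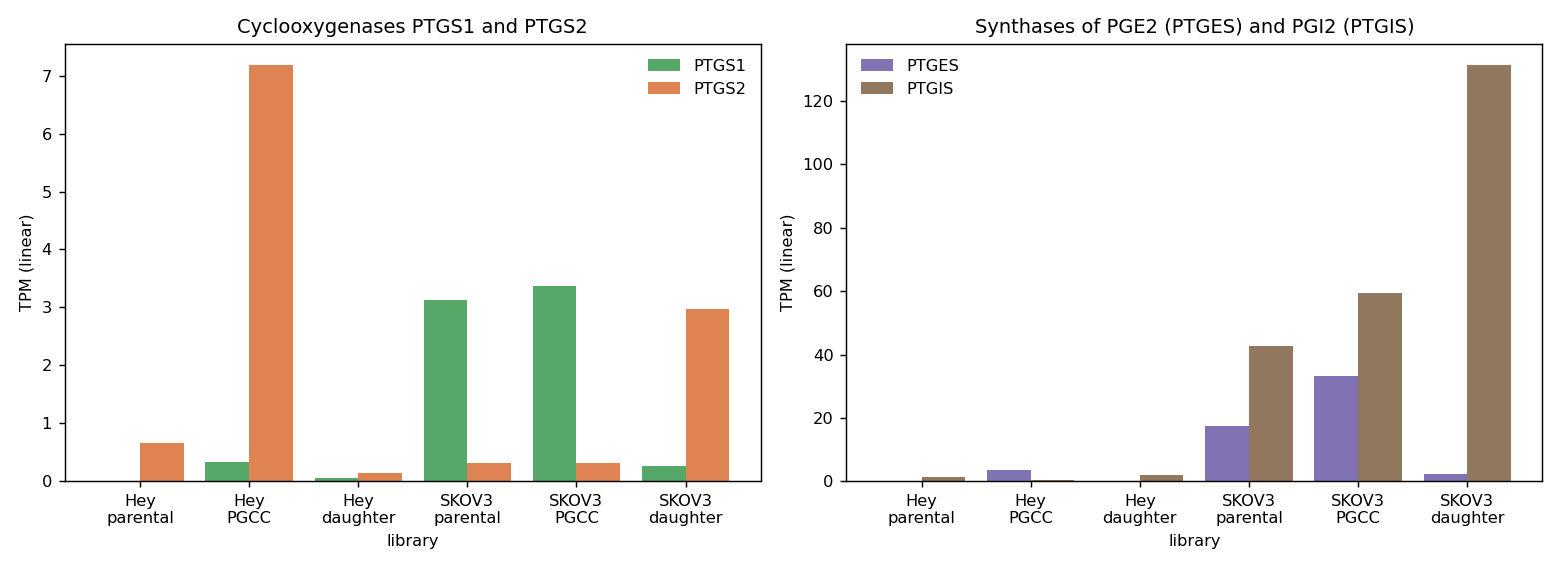
TPM on a linear axis from 0 of the cyclooxygenases PTGS1 and PTGS2 (left) and of the synthases PTGES and PTGIS (right) in the 6 libraries, 1 bar per gene and library without error. In SKOV3 daughter cells PTGS2 (2.98 TPM) stands where PTGS1 stood in parental cells (3.14 TPM), and PTGIS reaches 131 TPM.

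Around the members, 42 genes of the prostanoid path in 5 lists (phospholipases A2, cyclooxygenases, terminal synthases, receptors, and transport and breakdown) were followed, members included. Of these 22 were tested and 4 were listed at 0 in every library. In Hey PGCCs compared with parental cells 7.67% of all tested genes rose and 5.22% fell. Of the 22 path genes 5 rose and 0 fell there, with a median difference of 0.27 against 0 over all tested genes. Beside PTGS2 and PTGES these were AKR1B1 and AKR1C3, aldo-keto reductases that can make PGF2α, and the phospholipase PLA2G4C. AKR1B1 was at 45.8 TPM in Hey parental cells and 127 TPM in PGCCs, AKR1C3 at 35.6 and 75.4 TPM, a call that median-ratio scaling and removal of the GC and length trend each ended, and PLA2G4C at 3.13 and 14.1 TPM. PLA2G12A was newly called higher with mitochondrial genes left out.

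In SKOV3 PGCCs compared with parental cells other genes of the path were called, 4 higher and 1 lower, with a median of 0.37 against 0.017. Over all tested genes 9.94% were higher and 4.96% lower. The phospholipase PLA2G6 was at 3.19 TPM in parental cells and 10.6 TPM in PGCCs and PLA2G15, a lysosomal phospholipase A2, at 7.19 and 21.8 TPM. PTGES2, a second PGE2 synthase, was at 17.6 and 40.9 TPM, and PRXL2B, a prostamide and PGF synthase, at 13.7 and 31.7 TPM. PTGES3, the HSP90 co-chaperone p23 that also acts as a cytosolic PGE2 synthase, was lower, at 1297 and 568 TPM. With the trend in GC content and length taken out, 0 of these 5 calls were left. PTGES3 had the highest mean level of the synthases, 681 TPM over the 6 libraries.

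In Hey daughter cells 0 of the 22 genes were called against parental cells, with a median of -0.0072 against 0.050. Over all tested genes 6.31% rose and 3.73% fell there. In SKOV3 daughter cells 5 rose and 5 fell, with a median of 0.23 against 0.15, where 15.1% of all tested genes rose and 6.34% fell. Beside the members, PLA2G4C and PLA2G6 rose, and the secreted phospholipase PLA2G12A, PTGES3 and the thromboxane synthase TBXAS1 fell. The PTGES3 call was lost without the GC and length trend. AKR1B1 was newly called higher after quantile normalization, with mitochondrial genes left out and with that trend removed. PTGR2 was newly called higher with mitochondrial genes left out and with that trend removed. TBXAS1 was at 4.32 TPM in SKOV3 parental cells and 0.612 TPM in daughter cells.

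Against daughter cells, Hey PGCCs had 5 genes higher and 3 lower, with a median of 0.36 against -0.029. Over all tested genes 8.13% were higher and 9.95% lower. AKR1B1, PLA2G12A and PLA2G4C were higher beside PTGS2 and PTGES, and the exporter ABCC4 and the reductase ZADH2 were lower beside PTGIS. After quantile normalization ABCC4 and ZADH2 were not called, and removal of the GC and length trend also ended the ZADH2 call. SKOV3 PGCCs had 6 higher and 5 lower, with a median of 0.20 against -0.12, where 9.25% of all tested genes were higher and 14.6% lower. Here PLA2G15, PLAAT3, PRXL2B and TBXAS1 were higher beside the members and PLA2G4C and the reductase PTGR2 were lower. The PTGR2 call was lost under median-ratio scaling, quantile normalization and removal of the GC and length trend, and the last also ended those of PLA2G15 and PRXL2B. CBR1, of the list of terminal synthases, was newly called higher under median-ratio scaling and quantile normalization. PLAAT3, a phospholipase that also acts as an acyltransferase, was at 11.3, 14.9 and 9.61 TPM in Hey and at 31.1, 62.5 and 25.7 TPM in SKOV3. ABCC4, which can export prostaglandins, was at 22.3, 13.4 and 30.8 TPM in Hey and at 18.8, 13.7 and 11.8 TPM in SKOV3. PTGR1, a reductase that acts on prostaglandins and leukotrienes, was between 91.9 and 192 TPM in all 6 libraries. HPGD, the dehydrogenase that inactivates PGE2, was below the limit, at 0.129, 0 and 0.0376 TPM in Hey and 1.48, 2.22 and 0 TPM in SKOV3.

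Of the 9 prostanoid receptors 1 was tested, the PGF2α receptor PTGFR, at 2.79, 3.74 and 1.96 TPM in Hey and 1.03, 0.226 and 0.132 TPM in SKOV3. It was called in 0 of the 6 comparisons. PTGIR, the prostacyclin receptor, was between 1.12 and 1.46 TPM in Hey and at most 0.0959 TPM in SKOV3, the line in which the prostacyclin synthase PTGIS was high.

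**Figure D5:**
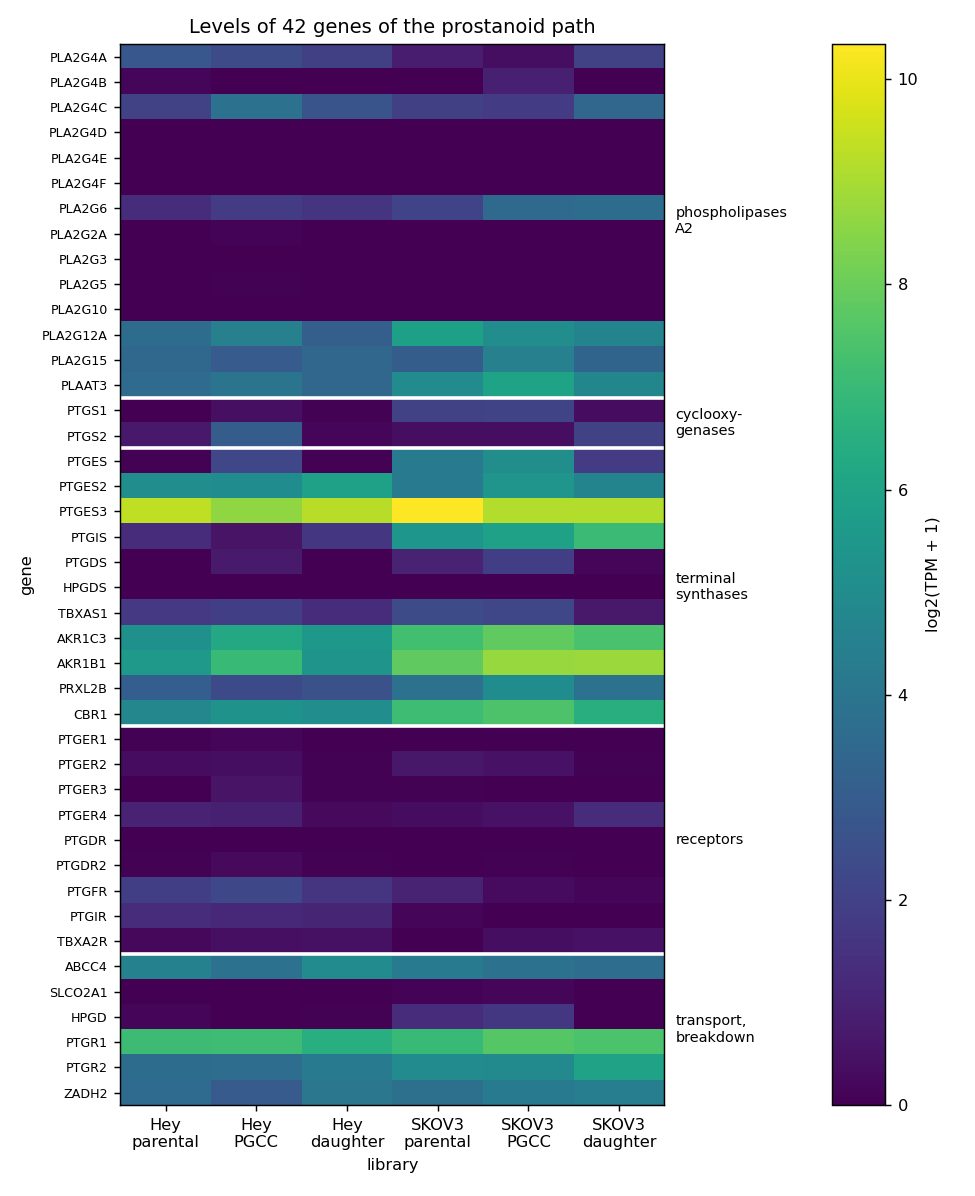
Level as log2(TPM + 1) (colour) of 42 genes of the prostanoid path (rows, grouped by role from phospholipases to transport and breakdown) in the 6 libraries (columns, 1 library each). PTGES3, AKR1B1 and PTGR1 are high in every library, the receptors are low, and PTGIS is brighter in each SKOV3 library than in any Hey library.

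Leukotrienes are made from the same arachidonic acid. Of 13 lipoxygenase and leukotriene genes 6 were tested, and ALOX5, ALOX5AP and CYSLTR1 rose in Hey PGCCs compared with parental cells, while 0 fell and 0 were called in SKOV3 PGCCs. Among all tested genes 7.67% rose and 5.22% fell in Hey PGCCs, and 9.94% rose and 4.96% fell in SKOV3 PGCCs. In Hey parental cells and PGCCs ALOX5 was at 0 and 1.08 TPM, and CYSLTR1 at 0.819 and 3.78 TPM. ALOX5AP, which presents arachidonate to 5-lipoxygenase, was at 13.6, 60.1 and 173 TPM in Hey and at 1.54, 0.524 and 0.523 TPM in SKOV3. Only the Hey daughter library was above the Hey PGCC library, and ALOX5AP was the 1 gene of this list called in Hey daughter cells against parental cells, where 6.31% of the tested genes rose. ALOXE3, whose mean was just under 1 TPM, was tested and called there as well under median-ratio scaling, quantile normalization and with mitochondrial genes left out. ALOX5 differed by -0.95 in SKOV3 daughter cells against parental cells. It was called lower there under median-ratio scaling, quantile normalization and removal of the GC and length trend. LTA4H, the leukotriene A4 hydrolase, had the highest mean level of the list, between 112 and 285 TPM.

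EP2 and EP4 signal through cyclic AMP, and 10 of 11 cyclic AMP responsive genes were tested. In Hey PGCCs compared with parental cells PDE4B, SIK1 and the EGF receptor ligand AREG rose and FOSB fell, and in SKOV3 PGCCs PDE4B and SIK1 fell. The shares over all tested genes were 7.67% higher and 5.22% lower in Hey and 9.94% and 4.96% in SKOV3. In daughter cells compared with parental cells SIK1 rose and FOSB fell in Hey, and PDE4B, SIK1 and AREG fell in SKOV3. There 6.31% of all tested genes rose and 3.73% fell in Hey, and 15.1% rose and 6.34% fell in SKOV3. After quantile normalization the PDE4B call in Hey PGCCs against parental cells was lost. AREG was at 0.429, 20.3 and 1.49 TPM in Hey and at 17.5, 16.2 and 6.52 TPM in SKOV3. SIK1, a kinase that cyclic AMP induces, was listed at 0 in Hey parental cells, was at 2.02 and 2.93 TPM in the other Hey libraries, and was at 25, 1.65 and 0.414 TPM in SKOV3. Against daughter cells NR4A2, CREM, PDE4B, PER1 and AREG were higher in Hey PGCCs, and AREG was the 1 such gene in SKOV3 PGCCs, where 8.13% and 9.25% of the tested genes were higher. The PER1 call was lost after quantile normalization. FOSB was newly called lower in SKOV3 PGCCs against daughter cells with the GC and length trend removed. DUSP1, a phosphatase of MAP kinases, had the highest mean level of the list, between 107 and 195 TPM. These genes respond to many other signals as well.

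The tested genes whose pattern over the 6 libraries lay nearest to each member were found by the Euclidean distance between log2(TPM + 1) values, each gene centred on its own mean. For PTGS2 these were TMEM265 (a distance of 0.325), PSG2 (0.692) and CXCL1 (0.804). CXCL1, a chemokine that attracts neutrophils, was at 104, 705 and 65.3 TPM in Hey and at 109, 121 and 198 TPM in SKOV3. As for PTGS2, the highest library of TMEM265, PSG2 and CXCL1 was the PGCC library in Hey and the daughter library in SKOV3. These genes were chosen by closeness over the same libraries, so this likeness is built in.

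For PTGES the nearest genes lay farther off, RRAD at 1.21, SERINC2 at 1.30 and TCIM at 1.44. RRAD, a small GTPase, was at 0.431, 14.3 and 1.45 TPM in Hey and at 22.5, 60.0 and 3.71 TPM in SKOV3. PTGS1 had SLC24A3 (0.338), EXOSC10-AS1 (0.365) and LINC01559 (0.370), PTGIS had PLEKHA7 (0.895), PRAME (0.897) and TMEM139 (0.903), and PLA2G4A had NR2F2 (0.441), DCBLD2 (0.451) and CACHD1 (0.452). Among the members themselves the closest pairs were PTGS2 with PLA2G4A (2.43) and PTGS1 with PTGES (2.64), whereas PTGS2 and PTGES were 5.51 apart.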

How the data were processed

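RNA of 2 cell lines in 3 states was sequenced, 1 library per condition. Per the labels and the study's methods, the authors used fastp, ran salmon 0.14.1 against transcripts of the human build hg38, and deposited TPM values per gene symbol. The step from transcripts to genes, the annotation release and bias options are not given in the sources used here. All columns were mapped to a sample by name.

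Values were used as deposited. Differences of log2(TPM + 1) were taken within each line and called at 2-fold. The tested genes had a mean of 1 TPM or more. No p-value was computed within a line. The limma 3.58.1 fit (R 4.3.3, eBayes with trend, Benjamini-Hochberg adjustment over all tested genes) was an alternative, and its spread is the disagreement between the lines. Other steps used Python 3.11.15 (pandas 2.3.3, numpy 2.4.6, statsmodels 0.14.6, scipy 1.17.1). GENCODE 44 (GRCh38, the build of hg38) gave positions, and GC content for 13468 of the 14988 tested genes, joined by symbol.

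The members and the gene lists were chosen with earlier results of these data known. Named are all members, other genes of the pathway lists called in any comparison, the gene of highest mean TPM of each such list, and the 3 nearest patterns per tested member, with markers by list. The alternatives were a pseudocount of 0.1, no filter, a mean TPM of 5, median-ratio scaling, quantile normalization, mitochondrial genes left out, 1.5-fold and 3-fold thresholds, removal of a GC and length trend (lowess, fraction 0.3, 2 passes), and limma without the line term. The steps were tested on simulated data.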

Additional observations from a re-analysis of the deposited data

Results flagged for a closer look

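In 6 cases a member was past the 2-fold threshold in at least 1 line and had the opposite sign in the other line, 4 in daughter against parental cells and 2 in PGCCs against daughter cells. Of all tested genes, 12.3% and 19.0% did so in these comparisons. All 6 cases share the SKOV3 daughter library. These differences between the lines were not tested, since 1 library per condition leaves no degrees of freedom for an interaction. All values are differences of log2(TPM + 1).

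In daughter cells compared with parental cells, PTGS1 differed by 0.077 in Hey and -1.72 in SKOV3, PTGES by 0.039 and -2.43, PTGS2 by -0.54 and 1.59, and PLA2G4A by -0.84 and 1.23. For PTGS1 and PTGES the Hey values lie close to 0, with both Hey levels below 0.1 TPM. In PGCCs compared with daughter cells, PTGS2 differed by 2.84 in Hey and -1.59 in SKOV3, and PLA2G4A by 0.40 and -1.63. For PTGS2 in PGCCs against daughter cells the difference was past the threshold in both lines, in opposite directions.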

How the results depend on the processing

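Over the members and 6 comparisons, 179 of the values recomputed under the alternatives that can move a value (pseudocount, scalings and trend removal) stayed on their side of the 2-fold threshold, 16 newly passed it and 3 no longer did, and these 3 are named in the report. With a pseudocount of 0.1, 4 members in place of 2 were called in Hey PGCCs against parental cells and 2 in place of 0 in Hey daughter cells. Of all tested genes 21.1% and 17.7% were called there. At a mean TPM of at least 5 only PTGES and PTGIS remain testable. Against parental cells 1 was called in Hey PGCCs and 2 in SKOV3 daughter cells, where 11.6% and 17.4% of all genes at that limit were called. In PGCCs against daughter cells 2 were called in each line, where 17.7% (Hey) and 21.1% (SKOV3) of all genes at that limit were called. At 1.5-fold, 1 member was called in SKOV3 PGCCs (PTGES) and 1 in Hey daughter cells (PLA2G4A), each against parental cells. Of all tested genes 39.2% and 27.9% were called at 1.5-fold in these comparisons. With limma in place of the threshold, 0 members in place of 2 were shared for PGCCs against daughter cells.

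Over all tested genes, between 10.0% and 23.9% were called in a comparison, between 27.9% and 46.7% at 1.5-fold and between 3.02% and 9.93% at 3-fold. With a pseudocount of 0.1 the share was 21.1% in place of 12.9% in Hey PGCCs and 17.7% in place of 10.0% in Hey daughter cells, both against parental cells, and with the GC and length trend removed it was 4.84% in place of 14.9% in SKOV3 PGCCs. In Hey PGCCs against parental cells 59.5% of all calls were higher, and 71.6% with mitochondrial genes left out, which moved the median difference of all genes from 0 to 0.11. In SKOV3 daughter against parental cells median-ratio scaling moved it from 0.15 to -0.019. None of the called genes of the pathway lists was called in the opposite direction under a scaling or with the trend removed. In SKOV3 PGCCs against parental cells the share was 66.7%, and 56.1% after quantile normalization and 49.7% without the GC trend. After quantile normalization it was 50.2% in place of 62.8% in Hey daughter cells, 51.4% in place of 70.5% in SKOV3 daughter cells and 52.7% in place of 38.8% in SKOV3 PGCCs against daughter cells, and under median ratios 52.0%, 56.7% and 50.0%. No paired analysis was possible within a line because each condition has 1 library, and across the lines the limma fit holds line as a term. No replicate could be left out.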
